A study of Mus musculus with 12 samples.

Results

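The transcription factors that set myeloid fate were followed in whole bone marrow (BM) of WT mice and of mice that carried the Flt3ITD allele together with loss of a Dnmt3a allele, a Tet2 allele or both. The genes were Spi1, Cebpa, Cebpb, Cebpd, Cebpe, Irf8, Irf5, Gfi1, Klf4 and Runx1. They were taken by gene symbol from the deposited table, which held all 10 of them among 12199 genes, and the filter on low counts kept all 10 among the 12175 genes tested. The DF mice were Dnmt3aFlox/+, MxCre and Flt3 ITD/+. The TF mice were Tet2+/- and Flt3ITD/+, and the TFD mice were Tet2+/-, Flt3ITD/+, Dnmt3aFlox/+ and MxCre. All were labelled C57BL/6, and WT mice carried none of these alleles. The methods of the study state that all experimental animals, WT included, received poly(I:C) at 8 to 10 weeks of age. They place the analysis of the animals 8 to 9 weeks after that treatment, and the RNA came from marrow that also served for phenotyping. The values came from 3 WT, 3 DF, 3 TF and 2 TFD libraries, and a TFD replicate 3 was not analysed here.

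Several features limit these groups as models. MxCre is driven by an interferon-inducible promoter, so poly(I:C) induces deletion of the floxed Dnmt3a allele in many tissues besides blood, whereas the Tet2 and Flt3ITD alleles were carried in the germ line. No group carried a single one of the 3 mutations, and Flt3ITD was shared by DF, TF and TFD. WT mice were procured separately, so origin and genotype cannot be told apart in any comparison with WT.

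In blood formation, PU.1 (encoded by Spi1) and RUNX1 open the enhancers of stem and progenitor cells, and C/EBP-alpha then directs progenitors to the granulocyte-monocyte fate. IRF8 and KLF4 favour monocytes and dendritic cells, whereas GFI1 and C/EBP-epsilon favour neutrophils, and IRF8 and GFI1 oppose each other at this branch. C/EBP-beta and C/EBP-delta act in emergency and late granulopoiesis and in macrophages, and IRF5 drives inflammatory cytokine genes in macrophages and dendritic cells.

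Against WT, Cebpa and the monocytic factors of this network rose in each mutant genotype. Cebpa, Irf8, Irf5 and Klf4 were called higher in DF, TF and TFD, by 2.41-fold to 4.03-fold. The granulocytic factors Cebpe and Gfi1 and the progenitor factor Runx1 were not called in any of these comparisons. Spi1 was called higher in DF and TF, and Cebpb and Cebpd in DF. In total 7 of the 10 factors were called higher and 0 lower in DF, where 37.6% of all genes tested were called, 21% higher and 16.6% lower. Of the called genes 55.9% were higher in DF, and 42.3% if counts were scaled by library totals rather than TMM factors. In TF, 5 were called higher and 0 lower, against 34.6% of all genes called, 19% higher and 15.6% lower. In TFD, 4 were called higher and 0 lower, against 26.3% of all genes called, 14.7% higher and 11.6% lower. The factors' median log2 fold change was 0.67 in DF, 0.34 in TF and 0.36 in TFD, and the medians of all genes tested were 0.05, 0.02 and 0.0069. A gene was called at a Benjamini-Hochberg adjusted p under 0.05 in edgeR's quasi-likelihood F test, adjusted over all genes tested. These 3 comparisons share the WT libraries and are given side by side.

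**Figure D1:**
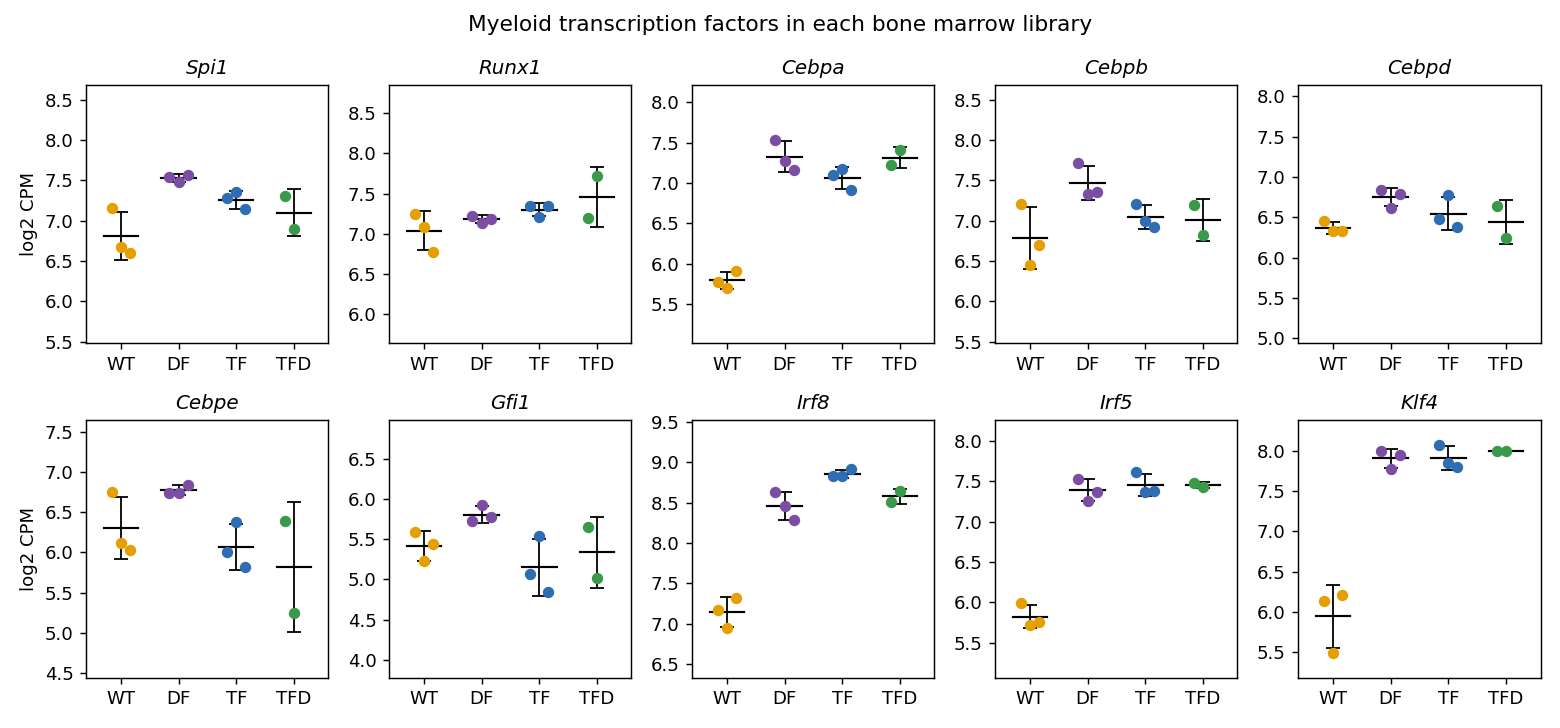
Log2 CPM (counts scaled to the TMM-adjusted library total) of each factor in the libraries of WT, DF, TF and TFD. Points are libraries, long bars the mean and short bars the SD (3 libraries each, 2 for TFD), and each panel spans an equal log2 range around its own level; for Cebpa, Irf8, Irf5 and Klf4 every mutant library lies above every WT library, whereas for Runx1 the genotypes overlap, and the DF libraries lie above those of TF and TFD for Cebpe and above all others for Gfi1.

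The promoters of the 4 factors that rose in each mutant genotype, and of Gfi1 as a factor that did not, are shown because the former moved together. Each is the 250 bases upstream of the start site, 5′ to 3′ on the gene's strand, from RefSeq on GRCm38.p6, the build that the study names as mm10. Capitals mark a motif match.
Irf8, chr8:120736108-120736357, plus strand: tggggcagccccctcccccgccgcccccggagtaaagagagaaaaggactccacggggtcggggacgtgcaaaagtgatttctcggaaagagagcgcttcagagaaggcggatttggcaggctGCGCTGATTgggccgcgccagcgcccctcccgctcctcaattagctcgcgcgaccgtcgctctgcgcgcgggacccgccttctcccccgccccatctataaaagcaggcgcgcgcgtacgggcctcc
Irf5, chr6:29526375-29526624, plus strand: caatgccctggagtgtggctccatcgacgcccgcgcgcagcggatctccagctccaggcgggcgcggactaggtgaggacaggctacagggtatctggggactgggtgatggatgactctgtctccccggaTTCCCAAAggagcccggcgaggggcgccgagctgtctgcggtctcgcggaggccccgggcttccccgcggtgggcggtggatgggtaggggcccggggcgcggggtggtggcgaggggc
Klf4, chr4:55532476-55532725, minus strand: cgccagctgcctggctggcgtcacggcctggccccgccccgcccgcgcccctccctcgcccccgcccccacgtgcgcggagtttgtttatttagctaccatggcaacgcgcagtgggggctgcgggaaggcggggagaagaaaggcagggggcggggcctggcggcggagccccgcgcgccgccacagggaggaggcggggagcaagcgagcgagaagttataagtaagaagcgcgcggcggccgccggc
Cebpa, chr7:35119043-35119292, plus strand: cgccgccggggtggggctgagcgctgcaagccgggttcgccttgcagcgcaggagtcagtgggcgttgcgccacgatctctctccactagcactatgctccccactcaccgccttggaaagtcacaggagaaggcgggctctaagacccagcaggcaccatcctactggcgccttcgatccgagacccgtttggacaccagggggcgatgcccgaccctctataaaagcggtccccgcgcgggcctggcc
Gfi1, chr5:107725806-107726055, minus strand: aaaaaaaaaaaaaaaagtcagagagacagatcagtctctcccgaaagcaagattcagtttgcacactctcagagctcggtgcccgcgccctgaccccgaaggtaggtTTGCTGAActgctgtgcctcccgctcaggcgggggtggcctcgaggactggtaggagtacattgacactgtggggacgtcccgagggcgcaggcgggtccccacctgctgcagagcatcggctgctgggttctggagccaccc

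RefSeq windows were matched by symbol for 7 of the 10 factors, with a second start site for Irf8, Gfi1 and Runx1. Spi1, Cebpd and Cebpe had no entry. The windows at the main start sites of Cebpb, Klf4, Irf5, Irf8, Cebpa and Gfi1 were rich in GC, at 81.6%, 74.0%, 72.0%, 67.2%, 66.4% and 59.2%, against a median of 52.4% over 32851 windows of 27025 genes. They held from 13 CpG dinucleotides in Gfi1 to 41 in Cebpb, and the median window held 6. The main Runx1 window differed, with 45.6% GC and 2 CpG dinucleotides, whereas its second window had 67.6% GC and 27.

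These windows were searched on both strands for 7 motifs. They were GAGGAAGT for PU.1, TTNCNNAA for C/EBP, GAAA and again GAAA with NN between for IRF, GGAA and GAAA with NN between for an ETS-IRF pair, TGTGGT for RUNX, AATCANNGC for GFI1 and GGGTGTGG for KLF, where N is any base and the PU.1 and ETS-IRF letters share GGAA. The Irf8 window held a GFI1 match 127 to 119 bases upstream of the start, on the opposite strand, and 2.9% of all windows held such a match. The Irf5 window held a C/EBP match 119 to 112 bases upstream and the Gfi1 window a C/EBP match 143 to 136 bases upstream. This motif is common, with a match in 36.8% of all windows. The other windows of the factors held 0 matches to the 7 motifs. A match describes these letters and is no evidence of binding.

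Depth and cell makeup bear on every value. Library totals over the deposited genes ranged from 8274153 to 15900904 reads, and single factors were covered by 302 reads (Gfi1 in WT2) or more. The targeted genes do not check the labels, because the counts are of whole genes in heterozygotes: Tet2 lay between 7.21 and 7.40 log2 CPM in WT, 7.09 and 7.68 in TF and 7.35 and 7.71 in TFD, and Dnmt3a between 4.95 and 5.85 in WT, 5.25 and 5.54 in DF and 5.77 and 5.87 in TFD. High counts of Xist, the X-inactivation RNA of female cells, set apart WT3, TF3 and TFD2. Of the rest, DF1 held 538 Xist reads and the others 18 to 32. TF3 also held the largest sums of B cell, erythroid, T cell and plasmacytoid dendritic cell markers among the mutant libraries, and TFD2 held the smallest sum of neutrophil markers of all libraries.

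Marker sums shifted with genotype in the same libraries. The 6 monocyte markers together reached 1686 to 1848 CPM (counts scaled to the TMM-adjusted library total) for WT, 5378 to 6126 for DF, 4777 to 6176 for TF, and 5247 and 5098 for TFD. All 6 were called higher in DF and in TF, and 5 of 6 in TFD. The 7 measured neutrophil markers of 8 summed to 48245 to 60601 CPM in WT, 55021 to 77467 in DF, 34722 to 44547 in TF, and 43340 and 21387 in TFD. None of them was called higher against WT, and 0, 2 and 1 were called lower in DF, TF and TFD. The source label names mononuclear cells of whole marrow, and the neutrophil gene S100a8 stood at 13134 to 16526 CPM in WT. The 8 B cell markers summed to 500 to 653 CPM in WT and 15 to 79 in the mutants, and all 8 were called lower in each mutant genotype. The 5 T cell markers summed to 31 to 37 CPM in WT and 12 to 21 in DF. Their sums were 17 to 45 in TF, and 15 and 10 in TFD. In DF, TF and TFD, 3, 0 and 2 of them were called lower and 0 higher. The megakaryocyte markers summed to 42 to 61 CPM in WT and 24 to 113 in the mutants. For stromal markers these ranges were 30 to 51 and 25 to 63. For eosinophil, basophil and mast cell markers they were 343 to 418 and 270 to 649. The part of these shifts in the factors' changes was not tested. In RNA from whole marrow, more cells of a type and more RNA of a gene per cell cannot be told apart.

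PU.1, the ETS factor on which macrophage and early lymphoid genes depend, was well expressed in each genotype. Spi1 (chr2:91096797-91115756, 5 exons) measured 7.15, 6.67 and 6.60 log2 CPM in the WT libraries, 7.54, 7.48 and 7.56 in DF, 7.28, 7.36 and 7.14 in TF, and 7.31 and 6.89 in TFD. The DF libraries lay above all others, while WT1 lay within the range of TF and TFD. The log2 fold changes against WT were 0.70 ± 0.15 (SE), 0.43 ± 0.15 and 0.28 ± 0.17 for DF, TF and TFD, at adjusted p values of 0.00311, 0.0404 and 0.228. The DF call held in all 19 alternative settings run for it. The TF call held in 10 of its 19 and ended without WT2 (log2 fold change 0.36, adjusted p = 0.140), WT3 (0.32, 0.160), TF1 (0.42, 0.0970) or TF2 (0.38, 0.118), and narrowly without any DF library, where the adjusted p was 0.0540 to 0.0562, with library totals (0.0526) and in a fit of TF and WT alone (0.0569). Without WT1, the TFD difference was 0.48 and passed the threshold (adjusted p = 0.0315).

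Runx1 encodes the DNA-binding subunit of core binding factor, which is required for definitive blood stem cells. It (chr16:92601466-92826074, 8 exons) measured 7.25, 7.09 and 6.77 log2 CPM in WT, 7.23, 7.14 and 7.19 in DF, 7.35, 7.21 and 7.35 in TF, and 7.19 and 7.72 in TFD. The genotypes overlapped, and TFD2 was the highest library. The log2 fold change was 0.13 (95% interval −0.18 to 0.44) in DF, 0.25 (−0.06 to 0.56) in TF and 0.43 (0.09 to 0.77) in TFD, with adjusted p values of 0.484, 0.191 and 0.0624. The TFD difference passed the threshold without WT1 (0.54, adjusted p = 0.0347) or TFD1 (0.67, adjusted p = 0.0124), the latter resting on a lone TFD library assumed to vary like the other groups.

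Cebpa, which encodes the C/EBP factor that progenitors need to become granulocytes and monocytes, showed the clearest change of its family. Cebpa (chr7:35119293-35121931, 1 exon) measured 5.78, 5.70 and 5.91 log2 CPM in WT, 7.53, 7.28 and 7.16 in DF, 7.10, 7.17 and 6.91 in TF, and 7.22 and 7.41 in TFD. The lowest mutant library, TF3, lay above the highest WT library, WT3, by a wide margin against the spread within each genotype. DF exceeded WT 2.90-fold (log2 fold change 1.53 ± 0.12, adjusted p = 5.89e-06), TF 2.41-fold (1.27 ± 0.12, 1.57e-05) and TFD 2.87-fold (1.52 ± 0.13, 1.20e-05).

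The other C/EBP genes moved less. Cebpb (chr2:167688915-167690432, 1 exon) measured 7.21, 6.45 and 6.70 log2 CPM in WT, 7.72, 7.34 and 7.35 in DF, 7.21, 7.0 and 6.93 in TF, and 7.19 and 6.83 in TFD. The DF libraries lay above all WT libraries, and those of TF and TFD lay within the range of WT. The log2 fold change of Cebpb against WT was 0.65 ± 0.18 for DF (adjusted p = 0.0134), 0.22 for TF (0.363) and 0.20 for TFD (0.512). The DF call ended without WT2 (0.50, adjusted p = 0.0593), WT3 (0.56, 0.0686) or DF1 (0.50, 0.0758).

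Cebpd (chr16:15887286-15889545, 1 exon) measured 6.46, 6.33 and 6.33 log2 CPM in WT, 6.84, 6.62 and 6.79 in DF, 6.48, 6.78 and 6.38 in TF, and 6.64 and 6.25 in TFD. DF again lay above WT, by a small margin. Against WT, Cebpd differed by 0.38 ± 0.13 log2 units in DF (adjusted p = 0.0370), by 0.18 in TF (0.300) and by 0.08 in TFD (0.727). The DF call was the least stable of the 7, held in 11 of 19 alternative settings, and ended with scaling by library totals (0.29, adjusted p = 0.116), with RLE factors (0.33, 0.0601), with a term for libraries with high Xist counts (0.30, 0.0649) and without WT1, WT2, WT3, DF1 or DF3 (0.31 to 0.39, adjusted p = 0.0684 to 0.138). A gene on the opposite strand covers 20.6% of the Cebpb exon (Tmem189) and 14.2% of the Cebpd exon (Spidr). The kit keeps strand, but the strand setting of the counting is not given in the sources used here.

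The IRF and KLF genes of the monocytic branch rose in each mutant genotype, as Cebpa did. Irf8 (chr8:120736358-120756692, 10 exons) measured 7.16, 6.94 and 7.32 log2 CPM in WT, 8.63, 8.45 and 8.29 in DF, 8.83, 8.83 and 8.92 in TF, and 8.51 and 8.65 in TFD. The mutant libraries lay above WT without overlap, and the TF libraries lay above those of DF and TFD. Irf8 rose 2.49-fold with the DF alleles (log2 fold change 1.31 ± 0.12, adjusted p = 1.57e-05), 3.27-fold with TF (1.71 ± 0.12, 2.04e-06) and 2.69-fold with TFD (1.43 ± 0.13, 1.75e-05). B cells and plasmacytoid dendritic cells also express Irf8, and the B cell marker sums, given above, were lower in every mutant library. The 4 plasmacytoid markers summed to 150 to 175 CPM in WT, 67 to 75 in DF, 127 to 331 in TF, and 82 and 130 in TFD, with Siglech at 0.0851 to 1.37 CPM in DF and 12 to 63.2 in TF. The part of these cells in the Irf8 values was not tested.

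Irf5 (chr6:29526625-29537320, 10 exons) measured 5.99, 5.72 and 5.76 log2 CPM in WT, 7.53, 7.26 and 7.37 in DF, 7.61, 7.37 and 7.38 in TF, and 7.48 and 7.43 in TFD. Its mutant libraries lay between 7.26 and 7.61, all above WT and with overlap among the mutant genotypes. The rise of Irf5 was 2.96-fold for DF (log2 fold change 1.56 ± 0.12, adjusted p = 3.64e-06), 3.09-fold for TF (1.63 ± 0.12, 1.59e-06) and 3.08-fold for TFD (1.62 ± 0.13, 4.63e-06).

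Klf4, which encodes a zinc finger factor of the monocyte program, had the largest log2 fold changes of the 10 factors against WT. Klf4 (chr4:55527137-55532475, 5 exons) measured 6.13, 5.49 and 6.21 log2 CPM in WT, 8.0, 7.77 and 7.94 in DF, 8.08, 7.84 and 7.80 in TF, and 8.0 in both TFD libraries. The mutant genotypes lay close together, and WT2 was the lowest library. Relative to WT, Klf4 was 3.80-fold higher for DF (log2 fold change 1.93 ± 0.16, adjusted p = 7.61e-06), 3.81-fold for TF (1.93 ± 0.16, 6.10e-06) and 4.03-fold for TFD (2.01 ± 0.17, 1.08e-05). The calls of Cebpa, Irf8, Irf5 and Klf4 against WT held in all 19 alternative settings in each mutant genotype, including the fits that left out each library in turn.

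**Figure D2:**
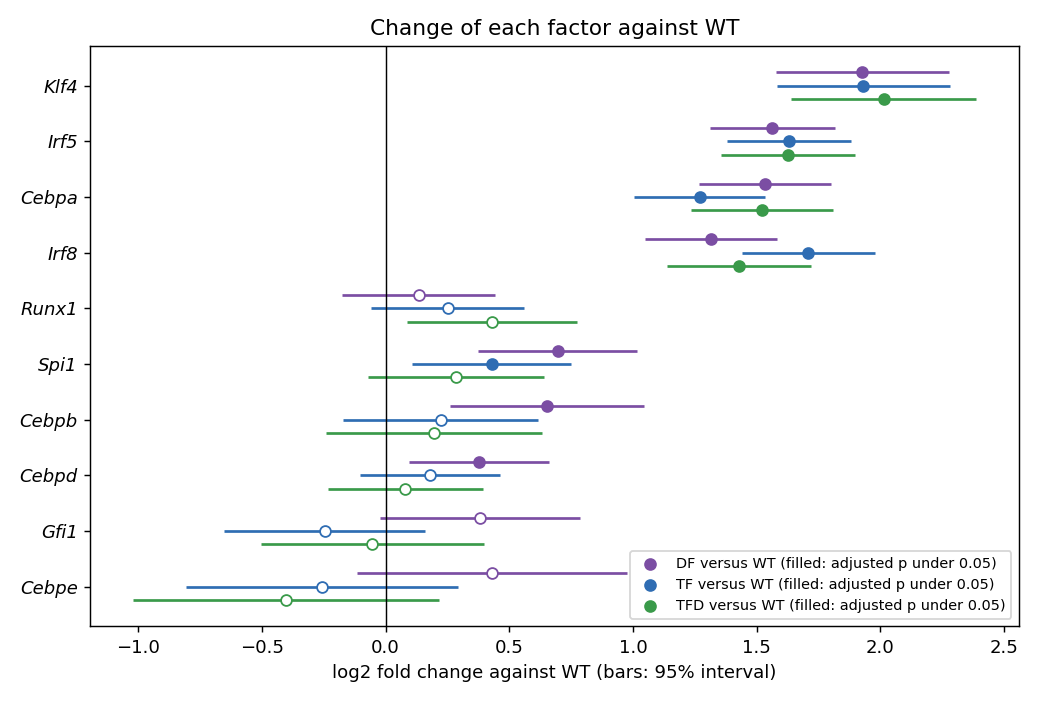
Log2 fold change of each factor against WT in DF, TF and TFD, with 95% intervals, from the fit over all genes. Filled points passed an adjusted p of 0.05; the intervals of Klf4, Irf5, Cebpa and Irf8 lie between 1.0 and 2.39, and those of Gfi1 and Cebpe include 0 in each genotype.

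The neutrophil factors behaved differently. Cebpe, which encodes the factor needed for secondary granule genes, is located at chr14:54710363-54712174 with 2 exons. It measured 6.75, 6.12 and 6.04 log2 CPM in WT, 6.74, 6.73 and 6.84 in DF, 6.00, 6.37 and 5.82 in TF, and 6.39 and 5.25 in TFD. WT1 reached the DF level and the TFD libraries differed by more than a log2 unit. The log2 fold change was 0.43 (95% interval −0.12 to 0.98) in DF, −0.26 (−0.81 to 0.29) in TF and −0.40 (−1.02 to 0.22) in TFD, with adjusted p values of 0.196, 0.453 and 0.331. The TFD value rested on its libraries: without TFD1 it was −1.09 (adjusted p = 0.0191) and without TFD2 0.06 (adjusted p = 0.895). TFD2 was also the library with the smallest sum of neutrophil markers.

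Gfi1 (chr5:107716655-107725805, 7 exons), a zinc finger repressor of monocyte genes, measured 5.59, 5.22 and 5.43 log2 CPM in WT, 5.72, 5.92 and 5.77 in DF, 5.07, 5.54 and 4.85 in TF, and 5.65 and 5.02 in TFD. The DF libraries were the highest, and those of TF and TFD overlapped the WT range. The log2 fold change was 0.38 (95% interval −0.02 to 0.78) in DF, −0.25 (−0.65 to 0.16) in TF and −0.05 (−0.50 to 0.40) in TFD, with adjusted p values of 0.123, 0.328 and 0.883. In a fit of DF and WT alone, the DF difference of 0.34 passed the threshold (adjusted p = 0.0394).

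DF and TF, which differ in whether a Dnmt3a or a Tet2 allele was lost and in MxCre, carried by DF, were compared directly. None of the 10 factors was called in the edgeR test, against 5.94% of all genes tested (1.67% higher and 4.27% lower in DF), with 2316 of 12175 genes under an unadjusted p of 0.05. Of the called genes, 28.1% were higher in DF, and 13.9% with library totals. The all-gene count of 723 depended on single libraries, at 385 without DF1, 169 without DF2, 252 without DF3 and 341 without TF3. Irf8 was 0.39 log2 units lower in DF (log2 fold change −0.39 ± 0.12, adjusted p = 0.0785), and its DF and TF libraries did not overlap. Gfi1 was 0.63 ± 0.19 higher in DF (adjusted p = 0.0692) and Cebpe 0.69 ± 0.25 higher (adjusted p = 0.146), again with no overlap between the libraries. Other settings moved these across the threshold. DESeq2 called Irf8 (−0.42, adjusted p = 0.0116) and Gfi1 (0.60, adjusted p = 0.0310), library totals called Irf8 (−0.48, adjusted p = 0.0481), and a fit of DF and TF alone called Cebpe (0.66, adjusted p = 0.0310). Gfi1 was also called without TF2 (0.85, adjusted p = 0.0140), TFD1 (0.63, 0.0389) or TFD2 (0.61, 0.0443), and Cebpe without TFD1 (0.69, 0.0435).

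For Klf4, Irf5 and Cebpa, which rose in both genotypes, the direct difference was small. Klf4 differed by −0.0036 between DF and TF (95% interval −0.34 to 0.33), Irf5 by −0.07 (−0.31 to 0.18) and Cebpa by 0.26 (0.01 to 0.52), with adjusted p values of 0.996, 0.842 and 0.245. Spi1 differed by 0.27 (−0.05 to 0.59), Cebpb by 0.43 (0.04 to 0.82), Cebpd by 0.20 (−0.08 to 0.48) and Runx1 by −0.12 (−0.43 to 0.19), with adjusted p values from 0.210 to 0.757. These intervals exclude differences over 0.34 log2 units for Klf4 and Irf5 and leave larger ones possible for the others, and they are not adjusted over genes.

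Adding the second allele was addressed by setting TFD against DF and TF, and the step from TF also added MxCre. Between DF and TFD, edgeR called 0 of the 10 factors and 0% of all genes, with 1727 genes under an unadjusted p of 0.05. The all-gene count was 384 without TFD1, 229 without TF3 and 1 to 13 without WT2, TF1, TF2 or TFD2, as well as 135 in a fit of only these genotypes and 42 with the replicate block. The log2 differences, DF minus TFD, ran from −0.30 for Runx1 (adjusted p = 0.422) to 0.83 for Cebpe (adjusted p = 0.234), whose 95% interval was 0.21 to 1.46. The Cebpe difference was 1.52 without TFD1 (adjusted p = 0.0218) and 0.35 without TFD2 (adjusted p = 0.999). Between TF and TFD, 0 factors and 0.0164% of all genes were called (0.00821% in each direction), with 1068 genes under an unadjusted p of 0.05, and the differences ran from −0.25 for Cebpa (adjusted p = 0.640) to 0.28 for Irf8 (adjusted p = 0.597). For Irf5 and Klf4 the 95% intervals of both comparisons lay within −0.46 and 0.29. DESeq2 called 0 factors in each of these comparisons, and over all genes it called 258 between DF and TFD and 126 between TF and TFD. In edgeR the latter count was 2, and 26 without TF2 and 22 with a term for libraries with high Xist counts. It was also larger without TFD1, where a lone TFD library remained.

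Differences between factors within a library carry no scaling factor. In RNA from whole marrow they mix cell makeup with RNA per cell, and the part of each was not tested. Irf8 exceeded Cebpe by 0.84 ± 0.43 log2 units (SD, n = 3) among WT libraries, 1.69 ± 0.22 among DF and 2.80 ± 0.32 among TF, and by 2.12 and 3.39 in the TFD libraries. The lowest DF library, at 1.45, lay above the highest WT library, at 1.28, and the TF libraries began at 2.46. Irf8 exceeded Gfi1 by 1.73 ± 0.16 in WT, 2.65 ± 0.22 in DF and 3.71 ± 0.39 in TF, and by 2.86 and 3.62 in TFD. Both differences thus had the order WT, DF, TF without overlap between those groups. Cebpa minus Spi1 gave −1.02 ± 0.34 for WT, −0.20 ± 0.20 for DF, −0.20 ± 0.03 for TF, and −0.09 and 0.52 for TFD. Cebpa lay nearer to Spi1 in each mutant library than in any WT library. These differences combine genes described above and were given no test.

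**Figure D3:**
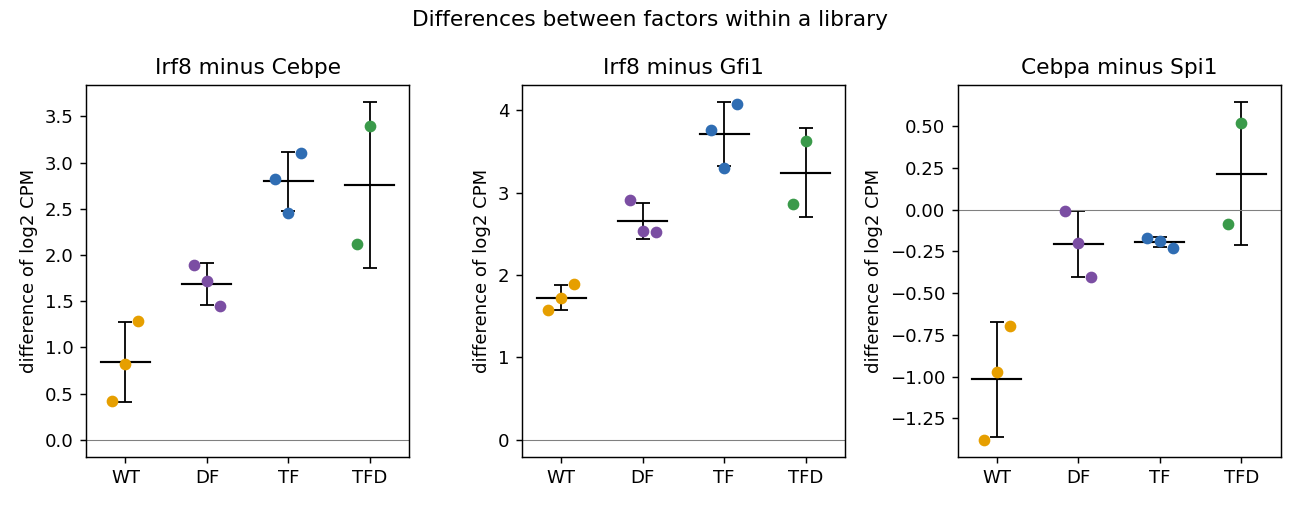
Differences of log2 CPM between 2 factors within each library, for Irf8 minus Cebpe, Irf8 minus Gfi1 and Cebpa minus Spi1. Points are libraries and bars the mean and SD (3 libraries each, 2 for TFD); the Irf8 differences are smallest in WT and larger in TF than in DF, and the TFD libraries lie apart from each other.

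Levels were compared between genes as CPM per kilobase of exon, using the deposited gene lengths. In WT, Spi1 (mean 85.5), Cebpb (74.6) and Cebpe (65.4) led and overlapped one another. Irf8 (41.4) and Cebpd (36.7) followed below them and overlapped each other, and Irf5 (23.8), Cebpa (21.1), Klf4 (20.7), Runx1 (18.0) and Gfi1 (13.8) formed a lower run in which each overlapped the next. The order changed in the mutants. In TF, Irf8 (135.4) led and lay above Spi1 (115.1) without overlap, followed by Cebpb (87.2), Klf4 (79.2) and Irf5 (73.6), which overlapped, and then Cebpe (54.8), Cebpa (50.8) and Cebpd (41.6). In TFD the first 5 stood in the same order, Irf8 (111.6), Spi1 (104.1), Cebpb (85.6), Klf4 (83.8) and Irf5 (73.4), and each of the first 3 overlapped the next. In DF, Spi1 (138.6), Cebpb (117.6), Irf8 (103.0) and Cebpe (88.3) led, each overlapping the next, and Klf4 (79.0) came below Cebpe without overlap. Runx1 and Gfi1 were the lowest of the 10 in each genotype, at 18.0 to 24.2 and 11.7 to 18.0.

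**Figure D4:**
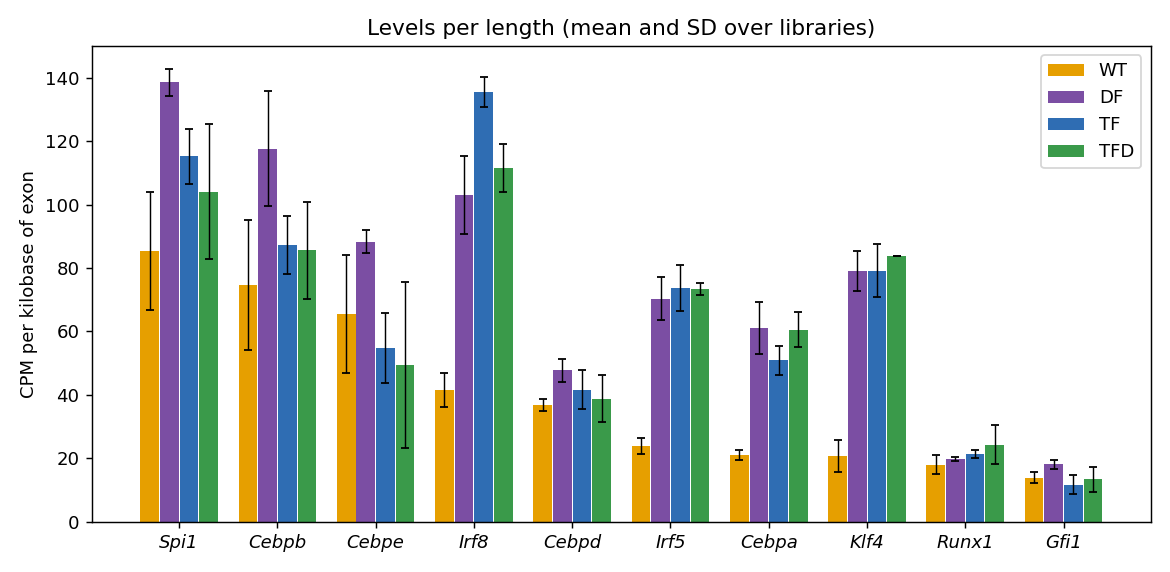
Mean CPM per kilobase of exon of each factor in WT, DF, TF and TFD, with the SD over libraries as error bars. Genes are ordered by their WT level; Irf8 stands at 41.4 in WT and 103.0 to 135.4 in the mutants, and Klf4 at 20.7 and 79.0 to 83.8, whereas Runx1 and Gfi1 stay under 25 in each.

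Related factors and cofactors of the network were also described by list, to be read against the all-gene shares of 21% higher and 16.6% lower calls in DF, 19% and 15.6% in TF, and 14.7% and 11.6% in TFD. Among 10 ETS relatives of PU.1, 1 was called higher and 4 lower in each mutant genotype. In the order DF, TF and TFD, the log2 fold change of Spib, a PU.1 relative of B cells and plasmacytoid dendritic cells, was −5.83, −2.30 and −3.93, and that of Ets1 −0.74, −1.29 and −1.24. The values of other genes below are given in the same order and on the same scale. Of 5 C/EBP relatives and regulators, 2, 3 and 2 were called lower and 0 higher. Trib2, whose protein promotes degradation of C/EBP-alpha, fell, at −6.44, −4.56 and −5.82, and Trib1 at −0.92 in TF and −0.77 in TFD.

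Among the 7 measured IRF family genes of 8, 1 was called higher and 5 lower in DF, 3 higher and 1 lower in TF, and 1 higher and 2 lower in TFD. The gene called higher in all 3 was Irf2bp2, which encodes an IRF2-binding protein and is not itself an IRF (0.64, 0.52 and 0.63). Irf7, an interferon-induced factor, was called lower in DF (log2 fold change −0.77, adjusted p = 0.0144) and higher in TF (0.81, adjusted p = 0.00988), and measured −0.19 in TFD (adjusted p = 0.602). The plasmacytoid marker sums, given above, were also lower in DF than in TF, and their part in the Irf7 values was not tested. Irf4, a factor of lymphoid and dendritic cells, fell, at −1.94, −0.70 and −0.88.

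Of 6 genes for GFI1 corepressors and the GFI1 paralogue, 1 was called higher and 2 lower in each mutant genotype. Gfi1b, the erythroid and megakaryocytic paralogue, fell, at −3.70, −1.48 and −2.57, and Ehmt2, a histone methyltransferase, rose by 0.51, 0.55 and 0.64. Of the 5 measured RUNX family genes and partners of 6, 1, 3 and 2 were called higher and 0 lower. Cbfb, which encodes the partner subunit of RUNX1, rose by 0.53, 0.47 and 0.51, although Runx1 itself was not called. Among 10 other monocyte and macrophage factors, 1, 1 and 2 were called higher and 1, 0 and 0 lower. Batf3, a dendritic cell factor, rose by 1.94, 3.49 and 2.82 from a low level in WT. Maf of the same list measured −1.26, −0.45 and −0.72 and was called lower in DF (adjusted p = 0.00857). Of 14 transcription factors of other lineages, 12, 12 and 11 were called lower and 1, 0 and 0 higher, with Ebf1 of B cells at −6.42, −5.49 and −6.95 and Klf1 of erythroid cells at −4.51, −1.48 and −2.78. The B cell marker sums were lower in every mutant library, and the erythroid sums in all but TF3, which lay within the WT range, at 1159 to 1510 CPM in WT, 282 to 415 in DF, 511 to 1293 in TF, and 595 and 464 in TFD. Their part in these changes was not tested.

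Genes that the factors are known to control were described by list, against the same all-gene shares (21%, 19% and 14.7% higher and 16.6%, 15.6% and 11.6% lower for DF, TF and TFD). Of 10 PU.1 targets, 6 were called higher in DF, 5 higher and 1 lower in TF and 4 higher in TFD, with medians of 0.52, 0.55 and 0.49. Csf1r, the receptor for macrophage colony-stimulating factor and a monocyte marker above, rose by 1.21, 1.31 and 1.48. Of 6 IRF8 targets, 4, 3 and 3 were called higher and 0 lower, with medians of 0.80, 1.28 and 0.94. The protease inhibitor gene Cst3 rose by 1.22, 1.78 and 1.45 and Ly86, which encodes the MD-1 coreceptor, by 1.33, 1.84 and 1.29. Of the 5 target lists, these 2 had the highest medians in TF and TFD.

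Granulocytic targets were listed by stage, and the counts against WT are again to be read against the all-gene shares above. Of 7 C/EBP-alpha targets of early granulocytes, 6 were called higher in DF, 1 higher and 1 lower in TF and 2 higher in TFD, with medians of 0.89, 0.31 and 0.24. Ctsg, which encodes the primary granule protease cathepsin G, rose by 1.23, 0.61 and 0.66. The progenitor markers, which share Mpo, Elane, Prtn3, Ctsg and Ms4a3 with this list, summed to 2981 to 3138 CPM in WT, 4677 to 6490 in DF, 2753 to 4494 in TF, and 5736 and 3945 in TFD. Of 7 C/EBP-epsilon targets of late granulocytes, 0 were called in DF, 3 were called lower in TF and 1 in TFD, with medians of 0.08, −0.65 and −0.59. Ltf, Camp and Ngp of this list are also among the neutrophil markers, whose sums are given above. Lcn2, which encodes a secondary granule protein, measured 0.18 in DF (adjusted p = 0.512) and fell, at −0.66 in TF and −0.73 in TFD. Of 7 genes that GFI1 represses, 2, 1 and 2 were called higher and 0, 1 and 1 lower in DF, TF and TFD. Hoxa9, a self-renewal factor, rose by 1.03, 1.10 and 1.04. In DF versus TF, 2 of the PU.1 targets, 2 of the C/EBP-alpha targets and 1 of the C/EBP-epsilon targets were called higher in DF, and 3 of the IRF8 targets lower, where 1.67% of all genes were called higher and 4.27% lower.

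**Figure D5:**
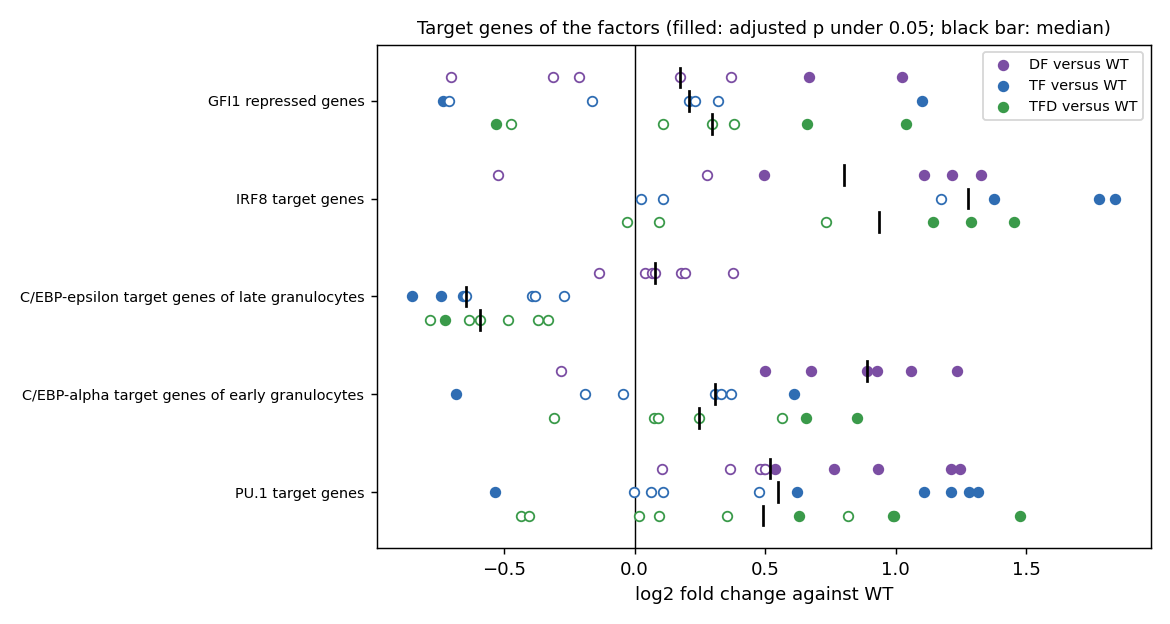
Log2 fold change against WT of the target genes of PU.1, C/EBP-alpha, C/EBP-epsilon, IRF8 and GFI1 in DF, TF and TFD. Each point is a gene, filled where its adjusted p was under 0.05, and black bars are medians; the C/EBP-epsilon targets have medians of 0.08 in DF, −0.65 in TF and −0.59 in TFD, and the IRF8 targets of 0.80, 1.28 and 0.94.

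The genes whose log2 CPM followed each factor most closely over the 11 libraries were listed as a description, from 9283 genes with a mean of at least 3 log2 CPM. For the factors that rose in each mutant genotype, they were Dtnbp1, Aldh1b1 and Cndp2 for Cebpa (Pearson's r 0.986 to 0.988), Mettl21a, Psmb8 and Calhm2 for Irf8 (0.990 to 0.992), Plxnb2, Pld4 and Slc12a9 for Irf5 (0.990 to 0.992) and Lrp12, Scarb1 and Kctd12b for Klf4 (0.988 to 0.991). Those of Spi1 were Cdc42se1, Ap2s1 and Pgam1 (0.973 to 0.980). Cebpb was followed by Skiv2l, Emd and Srf (0.940 to 0.969), Cebpd by Chst13, Siglecf and Rnf25 (0.946 to 0.966), and Cebpe by Tmem40, 1110008P14Rik and Ubash3a (0.962 to 0.973). Gfi1 was followed by Gys1, Ppp2cb and Alas1 (0.931 to 0.940) and Runx1 by Myadm, Rbm47 and Tnfaip1 (0.937 to 0.955). Among the factors themselves, Irf5 and Klf4 were the most alike (0.986), Cebpe was most like Gfi1 (0.868) and Spi1 most like Cebpb (0.894). The libraries fall into WT and mutant groups, which by itself gives high correlations, and they share depth and marker shifts.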

How the data were processed

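RNA was extracted from whole BM cells with Trizol, treated with DNase, depleted of globin mRNA and prepared with a stranded total RNA kit, per the labels. The authors mapped the reads to mm10 with STAR and assigned unique alignments to refGene genes with featureCounts, which gave the deposited raw counts. The sources used here give no tool versions and no strand setting of featureCounts. The deposited log2 CPM values were matched to within 5e-09 by edgeR's cpm function with TMM factors and a prior count of 0.25. The gene lengths the authors deposited are exon bases, a further column of another kind, used for CPM per kilobase.

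Each column name matched the title of 1 sample, which gave its genotype, and 0 pairs of libraries were identical. Genes over 0.5 CPM in more than 3 libraries were tested, which left 12175 of 12199. Raw counts were fitted in R 4.3.3 with edgeR 4.0.16, with TMM factors (0.924 to 1.043), a mean for each of the 4 genotypes and the quasi-likelihood F test. Standard errors came from the F statistic. Benjamini-Hochberg adjustment ran over all genes tested. The study's own test, DESeq2, was run as an alternative in version 1.42.0, beside limma 3.58.1 on log2(CPM + 1), library totals, RLE factors, no filter, the replicate number as a block, a covariate marking high Xist libraries (10000 reads or more), only the genotypes compared, and fits that leave out single libraries. The edgeR procedure was tested on simulated counts. Nothing in the labels says whether libraries came from separate animals. The study's statistics section ties each data point to an individual mouse, without naming the libraries. The p-values here therefore measure the spread between these libraries, with 2 or 3 per genotype limiting the precision.

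The 10 factors and the gene lists were chosen with earlier results of these data known. From each list, up to 4 called genes with the largest change in DF or TFD versus WT could be named, and some of these are not reported here. For each factor, the 3 genes of nearest pattern were named. Markers of 10 cell types were summed. Promoters came from RefSeq.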

Additional observations from a re-analysis of the deposited data

Results flagged for a closer look

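Related factors and target genes differed between DF and TF, tested as the difference of the 2 genotypes in the edgeR fit over all genes, although none of the 10 factors was called there. Values are log2 fold changes, DF minus TF. Lower in DF were the PU.1 relative Spib (−3.53, adjusted p = 0.0126), the erythroid factor Klf1 (−3.03, adjusted p = 0.00822), the GFI1 paralogue Gfi1b (−2.21, adjusted p = 0.0299), and the IRF family genes Irf7 (−1.58, adjusted p = 0.00299) and Irf4 (−1.24, adjusted p = 0.0148). The IRF8 targets Cst3 (−0.56, adjusted p = 0.0293) and Ly86 (−0.51, adjusted p = 0.0465) were also lower in DF, where Irf8 itself measured −0.39 (adjusted p = 0.0785). Higher in DF were the C/EBP-alpha target Ms4a3 (0.94, adjusted p = 0.0353) and the C/EBP-epsilon target Lcn2 (0.84, adjusted p = 0.0330).

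TF3 held the largest erythroid and plasmacytoid dendritic cell marker sums of the mutant libraries (1293 and 331 CPM). The part of this library in the differences of Klf1, Gfi1b, Spib, Irf7 and Irf4 was not tested. Groups of 2 or 3 libraries are too small for a test of single outlying libraries.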

How the results depend on the processing

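The calls of Cebpa, Irf8, Irf5 and Klf4 against WT held in all settings run, and the number of factors called against WT stayed within 1.5 times its value throughout. In DF versus TF, 0 factors were called by edgeR, 2 by DESeq2, 1 with library totals, 1 in a fit of only these genotypes, and 0 to 2 with each library left out in turn. In DF versus TFD the count was 0 to 1 with a library left out. Where a fit left 1 TFD library, that library was assumed to vary like the other groups. Differences near 0 changed sign. With libraries left out in turn, DF versus WT of Runx1 ranged from −0.025 to 0.21. TFD versus WT ranged from −0.0012 to 0.44 for Cebpb, −0.13 to 0.27 for Cebpd, −1.09 to 0.057 for Cebpe and −0.40 to 0.23 for Gfi1. DF versus TF ranged from −0.16 to 0.018 for Irf5 and −0.070 to 0.086 for Klf4, and was 0.017 for Klf4 with a term for libraries with high Xist counts. The causes were not tested. In refits of single factors (all 10 against WT and in DF versus TF, and the highest and lowest difference in DF versus TFD and TF versus TFD), 792 kept direction and side of the threshold, 20 lost a call, 14 gained one and 10 changed sign. Not counted there, the other differences from TFD changed sign for Cebpa and Irf5 in DF versus TFD and for Spi1, Cebpb, Cebpd, Cebpe, Irf5, Gfi1 and Runx1 in TF versus TFD, with the widest range for Cebpe (−0.32 to 0.83). With library totals, 4 of 40 mean levels moved by more than their SD.

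The replicate numbers did not pair the libraries: same-numbered libraries had correlations of −0.30 to 0.25, with 3 of 15 over 0.1, and 4 of 11 libraries were most like one of their own number. With the replicate number as a block, 7, 5 and 4 factors were called in DF, TF and TFD versus WT and 0 in the other 3 comparisons, as without it.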
